A study of Mus musculus with 16 samples.

Results

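Small leucine-rich proteoglycans are secreted matrix proteins built around leucine-rich repeats, and 4 of their mouse genes, Ecm2, Aspn, Omd and Ogn, lie in a row on chromosome 13. This account follows those 4 genes, the gene Cenpp that spans them on the other strand, and 4 relatives that lie elsewhere, Dcn, Lum, Bgn and Fmod, through RNA sequencing of mouse dorsal hippocampus. They are 9 of the 55385 gene identifiers in the count files. The cluster was chosen by measured values: Ecm2 and Ogn had passed the test of Dnmt3a2 against Control in these libraries, so their values in that comparison are given as a description and support nothing. Aspn and Omd were taken for their place between them, Cenpp for its span, and the other 4 for their family. Of the 9 genes, 8 passed the filter on low counts and were tested among 16899 genes. Omd did not pass.

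Every mouse had received a recombinant adeno-associated virus (rAAV) in the dorsal hippocampus, was trained in contextual fear conditioning 3 weeks later, and gave tissue 1 or 5 days after training. In the Control groups the virus carried GFP, a fluorescent protein, and in the Dnmt3a2 groups it carried Dnmt3a2, the shorter form of the DNA methyltransferase Dnmt3a. Control_1d, Dnmt3a2_1d, Control_5d and Dnmt3a2_5d held 4 libraries each, 16 in all. All 4 groups share the virus injection and the training, and none of the 16 libraries is from untrained or uninjected mice. The sources used here do not state the viral promoter and serotype, or the strain, age and number of mice behind each library. The p-values therefore measure only the spread between these libraries, which may be partly technical.

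Decorin (Dcn), biglycan (Bgn), lumican (Lum) and fibromodulin (Fmod) bind collagen fibrils and set how they assemble, and decorin and biglycan also bind growth factors such as transforming growth factor beta. Asporin (Aspn) is a close relative of decorin, osteoglycin (Ogn, also called mimecan) and osteomodulin (Omd) were first studied in bone, and Ecm2 encodes a matrix protein with the same kind of repeats. In brain these genes are known mainly from fibroblasts of the meninges and around vessels. Cenpp is unrelated and encodes a centromere protein. Dnmt3a2 adds methyl groups to cytosines, mainly at CG dinucleotides, and DNA methylation was not measured in the files used here.

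In GENCODE M21 (GRCm38), the cluster runs over 119.7 kb with all 4 genes on the plus strand. Ecm2 (ENSMUSG00000043631) lies at chr13:49504810-49532789, Aspn (ENSMUSG00000021388) at chr13:49544443-49567565, Omd (ENSMUSG00000048368) at chr13:49582462-49592822 and Ogn (ENSMUSG00000021390) at chr13:49608046-49624501. The gaps between them are 11.7, 14.9 and 15.2 kb. Cenpp (ENSMUSG00000021391) runs on the minus strand from 49652785 to 49464023, so the 4 genes sit inside its body. Ecm2, Omd and Ogn share no exonic base with any annotated gene, and Aspn shares 7 with Cenpp. The unlinked members are Dcn (ENSMUSG00000019929, chr10:97479609-97518143), Lum (ENSMUSG00000036446, chr10:97565128-97572703), Bgn (ENSMUSG00000031375, chrX:73483602-73495933) and Fmod (ENSMUSG00000041559, chr1:134037254-134048277). All 9 are annotated as protein coding.

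**Figure D1:**
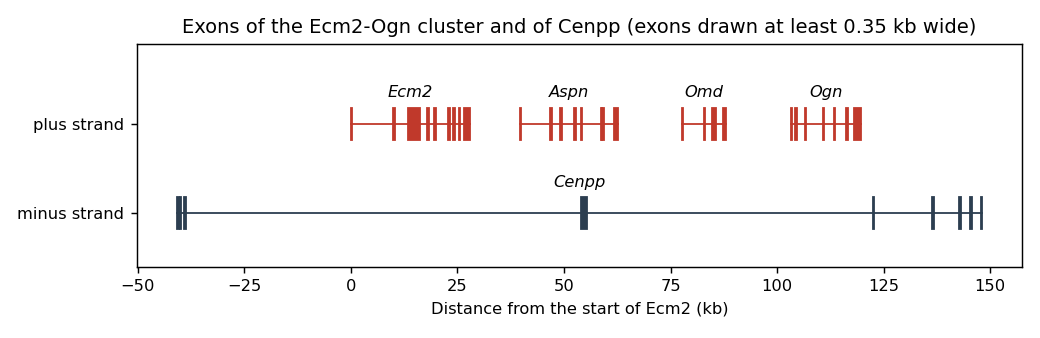
Exons of Ecm2, Aspn, Omd and Ogn on the plus strand (red) and of Cenpp on the minus strand (blue), by distance in kb from the start of Ecm2. Lines join the exons of a gene, and the 4 cluster genes lie within the body of Cenpp, which has exons on both sides of the cluster and 1 exon that touches an Aspn exon.

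The 250 bases upstream of the RefSeq start are shown for the 2 cluster genes with higher levels in the Dnmt3a2 groups and for the opposite-strand gene that spans them, because CG dinucleotides are what the introduced enzyme acts on. The stretches come from RefSeq (GRCm38.p6), which held 7 of the 9 members (not Dcn and Lum), and each is written 5′ to 3′ on the strand of its gene, with every CG in capitals. They lie at chr13:49504560-49504809 (Ecm2, plus strand), chr13:49607765-49608014 (Ogn, plus strand) and chr13:49652732-49652981 (Cenpp, minus strand). For Ogn and Cenpp the RefSeq start differs from the GENCODE M21 start given above. The Ogn stretch therefore ends short of that start, and the Cenpp stretch reaches into the gene body.
Ecm2: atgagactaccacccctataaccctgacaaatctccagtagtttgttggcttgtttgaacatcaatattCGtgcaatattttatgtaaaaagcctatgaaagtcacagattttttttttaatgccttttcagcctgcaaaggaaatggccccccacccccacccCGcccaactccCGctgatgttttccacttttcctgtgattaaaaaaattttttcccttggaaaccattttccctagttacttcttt
Ogn: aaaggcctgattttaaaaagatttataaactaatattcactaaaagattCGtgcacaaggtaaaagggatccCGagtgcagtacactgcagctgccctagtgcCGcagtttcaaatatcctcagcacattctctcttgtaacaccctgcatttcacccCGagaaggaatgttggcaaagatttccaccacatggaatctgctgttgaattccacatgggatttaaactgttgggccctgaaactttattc
Cenpp: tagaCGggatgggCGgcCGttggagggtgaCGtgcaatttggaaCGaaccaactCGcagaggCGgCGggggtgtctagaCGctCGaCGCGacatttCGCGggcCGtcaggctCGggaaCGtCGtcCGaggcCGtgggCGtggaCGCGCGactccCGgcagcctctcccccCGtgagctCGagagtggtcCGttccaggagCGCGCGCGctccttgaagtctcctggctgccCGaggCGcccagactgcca
The motif searched was CG, which reads the same on both strands. The Ecm2 stretch held 3 and that of Ogn 4, with a GC content of 40.0% and 42.0%, while Cenpp held 34 with 68.8%. Among 32851 mouse promoter stretches of the same length, the median was 6 CG and 52.4% GC. At least as many CG as in Ecm2 were held by 71.0% of all promoters, and as in Ogn by 62.2%, but as in Cenpp by only 3.5%. Aspn held 2, Omd 1, Bgn 7 and Fmod 2. The cluster genes are thus all below the median promoter in CG number, and the gene on the other strand is far above it.

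Library totals were 28.6 to 30.0 M estimated counts. Levels are given in CPM, that is, counts scaled to the size of the library, here with the trimmed mean of M values (TMM). Dnmt3a, the gene supplied by the virus, measured 34.8 ± 0.797 CPM (SD, n = 4) in Control_1d and 35.1 ± 2.15 in Control_5d, against 964 ± 238 in Dnmt3a2_1d and 1160 ± 110 in Dnmt3a2_5d, so each library matched its label. Camk2a, a kinase of forebrain excitatory neurons, averaged 7430 to 8570 CPM over the groups. Replicate 1 of Dnmt3a2_1d and replicate 1 of Dnmt3a2_5d stood apart by choroid plexus markers, with a summed level of 889 and 1420 CPM over 12 genes against 43.6 to 215 in the Control libraries. Those 2 libraries and replicate 1 of Control_1d also had the highest scores for interferon response genes. Among markers of neurons and astrocytes, Calb1 (averaged log2 difference of Dnmt3a2 from Control 0.37), Cpne9 (0.33) and Slc1a3 (0.19) passed as higher and C1ql2 (-0.49), Dsp (-0.24) and Camk2a (-0.13) as lower in edgeR (adjusted p 0.000117 to 0.0426). These were 1 of 10 astrocyte, 1 of 8 general neuron and 1 of 8 CA3 and CA2 markers, and of 8 dentate granule cell markers 1 as higher and 2 as lower. Of 6 dorsal CA1 and 10 neocortex markers 0 passed, beside 1.43% of all tested genes. Only 2 of the 8 dentate markers had a fit above 0, so Calb1 lay on the other side from most of its list. The calls of Slc1a3, Camk2a and Dsp were lost in 13, 10 and 7 of the 16 fits without 1 library.

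Divided by exonic length, Ogn and Bgn had the highest levels of the 9 genes, at 3.21 ± 0.753 and 3.08 ± 0.434 CPM per exonic kb (SD over 16 libraries), which do not differ beyond their spread. Ecm2 followed at 1.18 ± 0.479, then Fmod at 1.00 ± 0.237, Lum at 0.865 ± 0.118 and Dcn at 0.839 ± 0.223, and these 4 overlap within their spread. The Ecm2 mean and SD pool Control with the Dnmt3a2 groups, where it was higher, so its place among these 4 rests on that difference. In Control_1d and Control_5d its mean was the lowest of the 4, at 0.733 and 0.8. Fmod was then at 1.12 and 0.963, Dcn at 0.87 and 0.977 and Lum at 0.789 and 0.842. Aspn at 0.34 ± 0.13 and Cenpp at 0.328 ± 0.0918 lay lower and did not differ beyond their spread. Omd was lowest at 0.0453 ± 0.03. Along the chromosome, the order of levels was therefore moderate, low, very low and high.

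Ecm2 was the member that separated the groups most clearly. It measured 5.01, 4.15, 3.47 and 4.02 CPM in the 4 Control_1d libraries and 7.32, 8.89, 9.13 and 6.9 CPM in those of Dnmt3a2_1d. In Control_5d it measured 4.78, 4.65, 4.68 and 4.06 CPM, and in Dnmt3a2_5d 9.51, 11.9, 8.01 and 10.9 CPM. These rest on 101.5 to 362.1 estimated counts per library. Every Dnmt3a2 library lay above every Control library on both days. The group means were 4.16 ± 0.636, 8.06 ± 1.11, 4.54 ± 0.328 and 10.1 ± 1.69 CPM (SD, n = 4, same order of groups), and the fitted log2 difference of Dnmt3a2 from Control was 0.95 (SE 0.14) at 1 day and 1.15 (SE 0.14) at 5 days. Without the 2 choroid-rich libraries these were 0.99 and 1.18.

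Part of the Ecm2 estimate rests on shared sequence. Of 5672 stretches of 31 bases in its transcripts, 188 (3.31%) also occur in transcripts of other genes, 1538 of them, and its estimated count was not a whole number in 16 of 16 libraries. None of those stretches is shared with the other 8 members. For Ogn and Aspn no such stretch occurs in any other gene, and their counts were whole in every library (tolerance 0.01). How much the shared stretches add to the Ecm2 values was not tested.

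Ogn differed from Ecm2 in its Control groups. It measured 6.13, 5.76, 3.47 and 6.77 CPM in Control_1d and 9.79, 10.7, 8.47 and 8.84 CPM in Dnmt3a2_1d, again with no overlap. In Control_5d the 4 libraries were at 8.35, 7.9, 8.17 and 8.98 CPM, and in Dnmt3a2_5d at 10.6, 9.15, 10.4 and 8.37 CPM. At 5 days the lowest Dnmt3a2 library lay among the Control libraries. Control_1d was the group that stood low, at 5.53 ± 1.44 CPM, against 9.44 ± 0.983, 8.35 ± 0.457 and 9.63 ± 1.06 CPM in Dnmt3a2_1d, Control_5d and Dnmt3a2_5d. The fitted log2 difference of Dnmt3a2 from Control was 0.77 (SE 0.15) at 1 day and 0.21 (SE 0.14) at 5 days.

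The genes between them had few counts. Aspn did not pass the test on either day, and Omd was not tested. Aspn measured 1.05, 0.708, 0.447 and 0.486 CPM in Control_1d and 1.68, 1.01, 0.586 and 1.14 CPM in Dnmt3a2_1d, which overlap. Its log2 difference at 1 day was 0.71 (SE 0.32, 95% interval 0.05 to 1.37), and the adjusted p in edgeR was 0.643. Without Dnmt3a2_1d replicate 1, its highest library and a choroid-rich one, the difference was 0.43, and over the fits without 1 library it ran from 0.43 to 1.01. At 5 days all 8 libraries lay between 0.567 and 0.826 CPM, and the difference was 0.08 (SE 0.32). Asporin counts were few, 13 to 49 per library, so the intervals are wide. On each day the Aspn interval includes the Ogn difference of the same day. At 1 day it also includes the Ecm2 difference of 0.95. At 5 days, from -0.59 to 0.75, it lies below the Ecm2 difference of 1.15. Omd never exceeded 7 counts, and its highest library was at 0.243 CPM, in Dnmt3a2_1d. No difference in Omd was detectable at this depth.

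Cenpp, on the opposite strand, stayed at or below 1.41 CPM. Its group means were 0.952 ± 0.314 in Control_1d, 0.985 ± 0.244 in Dnmt3a2_1d, 0.784 ± 0.0399 in Control_5d and 0.64 ± 0.121 CPM in Dnmt3a2_5d. The log2 difference of Dnmt3a2 from Control was 0.05 (SE 0.27, 95% interval -0.50 to 0.60) at 1 day and -0.29 (SE 0.28, 95% interval -0.87 to 0.28) at 5 days. Neither interval reaches the fitted difference of Ecm2. Of the Cenpp stretches of 31 bases, 11.4% also occur in another gene, mainly its overlapping neighbour Ippk. The sources used here do not state the strand setting of the counting, and reads from the 7 bases shared by Aspn and Cenpp cannot be told apart.

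**Figure D2:**
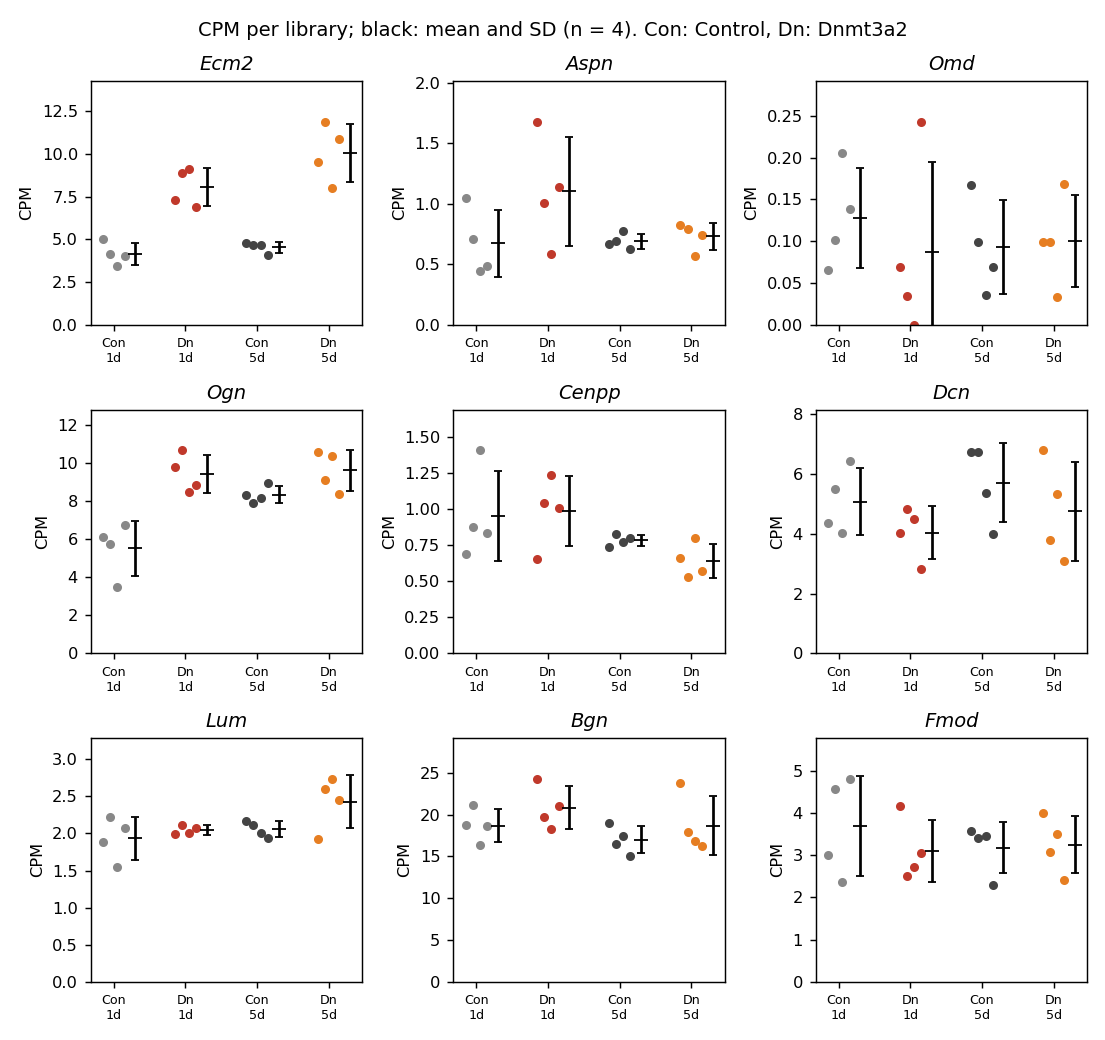
CPM of each of the 9 genes (1 panel per gene, linear axes from 0) in every library, by group, with the mean and SD of 4 libraries in black. Ecm2 lies at 6.9 CPM or more in all Dnmt3a2 libraries and at 5.01 or less in all Control libraries, and Ogn is low in Control_1d alone, while the groups of the other 7 genes overlap.

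The unlinked relatives showed no such separation. Dcn measured 4.35, 5.49, 4.02 and 6.45 CPM in Control_1d and 4.02, 4.82, 4.51 and 2.81 CPM in Dnmt3a2_1d. At 5 days it measured 6.75, 6.74, 5.35 and 3.99 CPM in Control and 6.8, 3.78, 5.34 and 3.09 CPM in Dnmt3a2. Its log2 difference of Dnmt3a2 from Control was -0.33 (SE 0.24, 95% interval -0.83 to 0.18) at 1 day and -0.26 (SE 0.24, 95% interval -0.76 to 0.23) at 5 days. Both intervals include 0, and both lie below the fitted differences of Ecm2.

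Lum, the neighbour of Dcn on chromosome 10, measured 1.55 to 2.22 CPM in Control_1d, 1.99 to 2.12 in Dnmt3a2_1d, 1.94 to 2.17 in Control_5d and 1.92 to 2.74 in Dnmt3a2_5d. In Dnmt3a2_5d, 3 of 4 libraries lay above every Control_5d library, with a log2 difference of 0.23 (SE 0.16, 95% interval -0.10 to 0.57). Bgn measured 18.7 ± 1.98, 20.8 ± 2.58, 17.0 ± 1.64 and 18.7 ± 3.47 CPM in Control_1d, Dnmt3a2_1d, Control_5d and Dnmt3a2_5d. Its highest library in each Dnmt3a2 group was replicate 1, at 24.3 and 23.8 CPM, which are the choroid-rich libraries. The Bgn differences were 0.15 (SE 0.12) and 0.14 (SE 0.12), and that at 5 days was -0.0019 without those 2 libraries. Fmod measured 2.29 to 4.82 CPM over the 16 libraries, with differences of -0.25 (SE 0.22) at 1 day and 0.03 (SE 0.23) at 5 days.

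In edgeR's quasi-likelihood test with Benjamini-Hochberg adjustment over all genes, 2 of the 8 tested members passed an adjusted p of 0.05 at 1 day, both higher in Dnmt3a2. Of all tested genes 0.0888% passed in either direction and 0.0533% as higher. At 5 days 1 member passed, Ecm2, beside 0.32% of all genes in either direction and 0.148% as higher. With the days averaged Ecm2 and Ogn passed, 2 of 8, beside 1.43% of all genes and 0.704% as higher. These counts are how the cluster was chosen and carry no further weight. Ogn did not pass at 1 day in 11 of the 16 fits without 1 library, with an adjusted p in edgeR of 0.0251 to 0.123 over the 16, while Ecm2 passed in all of them. Ecm2 and Ogn were also the members whose libraries did not overlap with Dnmt3a2 higher at 1 day, as for 1.67% of all genes, and Ecm2 the one at 5 days, as for 3% of all genes. The median log2 difference over the 8 members was 0.12 at 1 day and 0.11 at 5 days, beside 0.003 and 0.008 over all tested genes. The fit lay above 0 for 6 of 8 members on each day, beside 50.9% and 52.8% of all genes. The non-overlap, these medians and these counts all include Ecm2 and Ogn, which were chosen by this comparison, and carry no further weight either. In bulk tissue, more cells of a type and more RNA per cell cannot be told apart.

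**Figure D3:**
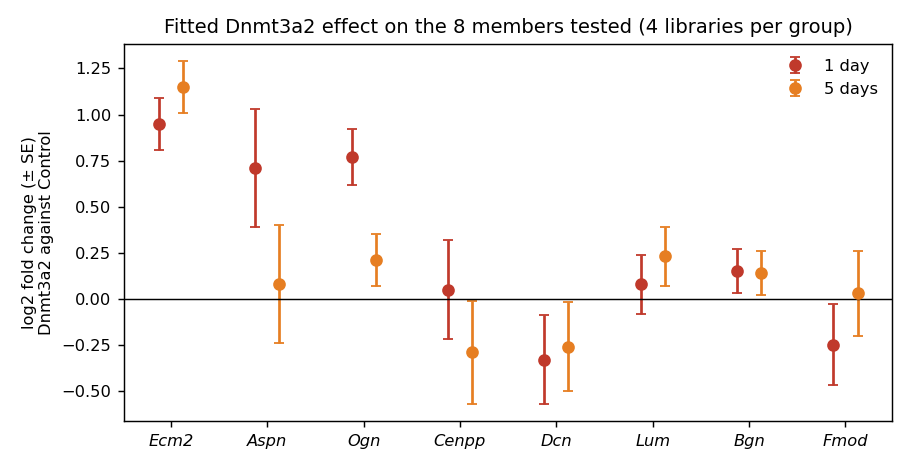
Fitted log2 fold change of Dnmt3a2 against Control at 1 day (red) and 5 days (orange) for the 8 members tested, with bars of 1 SE from the edgeR fit over 16 libraries. Ecm2 is near 1 on both days, Ogn is 0.77 at 1 day and 0.21 at 5 days, and Dcn lies below 0 on both days.

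The comparisons between days use the same 16 libraries as the comparisons that chose Ecm2 and Ogn, so the values of these 2 genes between days, and their differences of effects, are not independent of the choice. In the Control groups Ogn was higher at 5 days than at 1 day, with every Control_5d library (7.9 CPM or more) above every Control_1d library (6.77 CPM or less) and a ratio of means of 1.51. Among all genes, 1.13% had Control groups that did not overlap in this direction. The log2 difference was 0.59 (SE 0.15, 95% interval 0.29 to 0.90), with the third smallest p of all 16899 genes (edgeR, 0.000594), but the adjusted p was 0.999 and it did not pass. In the Dnmt3a2 groups the Ogn difference between days was 0.03 (SE 0.14, 95% interval -0.26 to 0.32).

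Ecm2 differed by 0.12 (SE 0.14) between days in Control and by 0.32 (SE 0.13, 95% interval 0.05 to 0.59) in Dnmt3a2, where 3 of 4 libraries at 5 days lay above all 4 at 1 day. The edgeR p for the latter was 0.0229 and the adjusted p 0.402. Cenpp was lower at 5 days in Dnmt3a2 by a log2 difference of -0.62 (SE 0.27, 95% interval -1.19 to -0.05), with an edgeR p of 0.0346 and an adjusted p of 0.427. Aspn differed by -0.59 (SE 0.31, 95% interval -1.25 to 0.06) in the same comparison. None of these passed the test.

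The test of whether the Dnmt3a2 effect differed between the days gave -0.56 (SE 0.20, 95% interval -0.99 to -0.14) for Ogn and 0.20 (SE 0.19, 95% interval -0.20 to 0.60) for Ecm2. The edgeR p for Ogn was 0.0113, ranking 50 of 16899, and both adjusted p-values were 1. The smaller Ogn effect at 5 days is therefore not shown to differ from that at 1 day. Between days, 0 of 8 members passed in Control, in Dnmt3a2 and in the difference of effects, where 0% of all genes passed too. At an unadjusted p under 0.05 there were 1, 2 and 1 members, beside 598, 1822 and 360 genes of all tested. DESeq2 and limma also called 0 members in each. Of all 16899 genes, DESeq2 called 0, 44 and 1 in the 3 comparisons.

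The genes around the cluster were set beside it as a description, since Ecm2 and Ogn were chosen by their values in this same comparison. Within 500 kb on either side lie 34 annotated genes, of which 13 were tested, 9 of them not members. By edgeR 0 of these 9 passed on either day, with 1 and 0 at an unadjusted p under 0.05, which 7.17% of all tested genes reached at 1 day and 8.01% at 5 days. Their log2 differences ranged from -0.13 to 0.35 at 1 day (median 0.00) and from -0.03 to 0.19 at 5 days (median 0.07). The highest was Ippk, an inositol phosphate kinase whose end overlaps that of Cenpp, at 31.2 CPM in Control_1d and 39.8 in Dnmt3a2_1d. Its log2 difference was 0.35 (SE 0.08, adjusted p in edgeR 0.179) at 1 day and 0.16 (SE 0.08, adjusted p 0.694) at 5 days. Nol8, which encodes a nucleolar protein and starts beside Cenpp, gave 0.13 (SE 0.10) on both days. Iars, the isoleucyl-tRNA synthetase gene beyond it, gave 0.02 (SE 0.06) and 0.11 (SE 0.06).

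**Figure D4:**
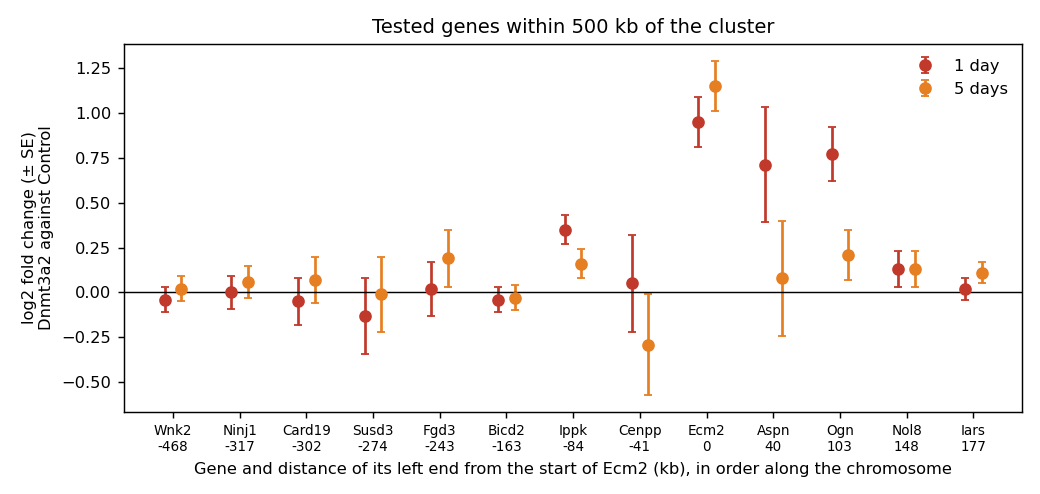
Fitted log2 fold change of Dnmt3a2 against Control at 1 day (red) and 5 days (orange), with bars of 1 SE, for the 13 tested genes within 500 kb of the cluster in chromosome order, each labelled with the distance of its left end from the start of Ecm2 in kb. Ecm2, Aspn and Ogn at 1 day and Ecm2 at 5 days lie above 0.35, the highest value among the 9 genes that are not members.

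Because these genes are known from meningeal fibroblasts, the levels of 22 fibroblast markers outside the family (among them Col1a1, Col1a2, Slc6a13 and Foxc1) were set beside them. All 22 were detected and 20 were tested. At 1 day 3 of 20 had a fit above 0 in Dnmt3a2 (median log2 difference -0.137), and at 5 days 9 of 20 (median -0.016), while 0 passed in edgeR on either day, with 1 at an unadjusted p under 0.05 on each. Over all tested genes, 50.9% and 52.8% had a fit above 0, and 7.17% and 8.01% reached that unadjusted p at 1 and 5 days, shares that also stand beside the marker lists that follow. The summed marker level ranged from 140 to 179 CPM in Control_1d, 151 to 225 in Dnmt3a2_1d, 153 to 185 in Control_5d and 143 to 286 in Dnmt3a2_5d, so the groups overlapped. With the fibroblast score as a covariate, the Ecm2 difference was 0.95 at 1 day and 1.15 at 5 days. At 1 day the other members moved. Ogn was 0.87 in place of 0.77, Aspn 0.83 in place of 0.71 and Bgn 0.26 in place of 0.15. Dcn was -0.12 in place of -0.33 and Fmod -0.011 in place of -0.25. Lum was 0.093 in place of 0.083 and Cenpp -0.037 in place of 0.049. The part of fibroblast content in these differences was not tested. Of 10 mural and 10 endothelial markers, 0 passed on either day, with 0 and 1 mural and 0 and 0 endothelial markers at an unadjusted p under 0.05. Of 12 choroid plexus markers, 12 had a fit above 0 on both days (medians 1.706 and 1.864) and 0 passed, with 0 and 2 at an unadjusted p under 0.05. Their score was 2.75 and 3.42 in the 2 choroid-rich libraries, from -0.84 to 0.77 in the other 6 Dnmt3a2 libraries and from -1.24 to 1.28 in the Control libraries.

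Within groups, the 8 tested members were set against the fibroblast score, the mean over the 20 tested markers of log2 CPM centred on each gene's mean. Values were taken as deviations from the group mean over 16 libraries, and p-values come from permutation within groups, adjusted over 15 relations. Fmod followed the score closely (Pearson r = 0.87, adjusted permutation p = 0.00225; Spearman rho = 0.89, adjusted p = 0.00045), as did Bgn (r = 0.86, adjusted permutation p = 0.00247; rho = 0.89, adjusted p = 0.00397). Without the 2 libraries farthest from the median score, r was 0.87 and 0.74. Dcn gave r = 0.71 (adjusted permutation p = 0.0514) and rho = 0.63 (adjusted p = 0.112), and 0.44 without those 2 libraries. Ogn gave r = 0.60 (adjusted permutation p = 0.113) and rho = 0.51 (adjusted p = 0.227), and 0.87 without those 2. For Aspn, r was 0.44 (adjusted permutation p = 0.22), rho 0.51 (adjusted p = 0.227) and r without those 2 libraries 0.47. For Cenpp these were -0.40 (adjusted permutation p = 0.396), -0.42 (adjusted p = 0.335) and -0.63. Whether the members differ in r was not tested.

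Ecm2 gave r = 0.03 (adjusted permutation p = 0.972) and rho = -0.01 (adjusted p = 0.981) with the same score. Lum gave r = 0.09 (adjusted permutation p = 0.972) and rho = 0.09 (adjusted p = 0.981), but 0.76 without the 2 farthest libraries. When the 2 choroid-rich libraries were left out, an alternative chosen after seeing the data, Lum gave r = 0.80 (adjusted permutation p = 0.0199) and rho = 0.79 (adjusted p = 0.0665). Ecm2 then gave r = 0.18 (adjusted permutation p = 0.705) and rho = -0.23 (adjusted p = 0.769). Fmod gave r = 0.88 (adjusted permutation p = 0.0199) and rho = 0.93 (adjusted p = 0.0069), and Bgn r = 0.79 (adjusted permutation p = 0.0426) and rho = 0.63 (adjusted p = 0.158), so Bgn no longer passed by rho. The relations of Ecm2 to the 7 other tested members ran from r = -0.41 with Cenpp to 0.20 with Aspn and Lum, and none passed. With its cluster mate Ogn, r was 0.16 and rho 0.03 (adjusted permutation p = 0.943 and 0.981).

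**Figure D5:**
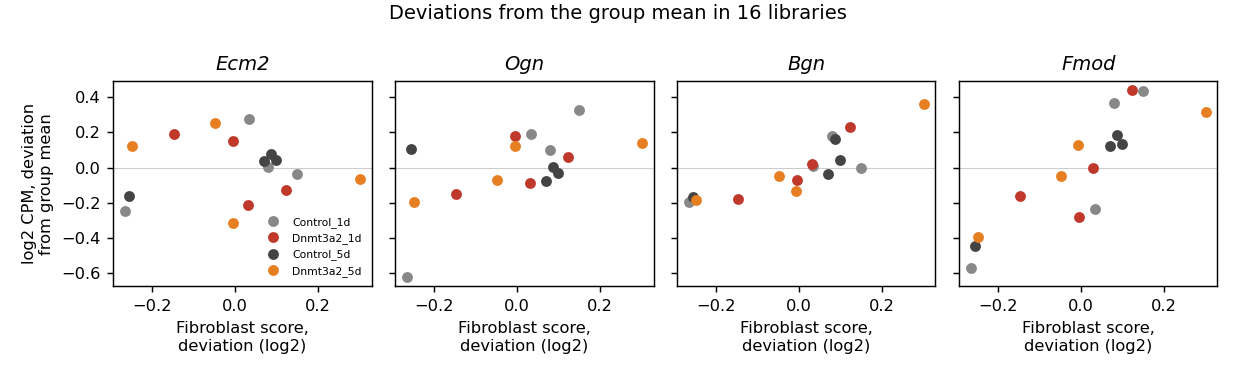
Deviation of log2 CPM from the group mean for Ecm2, Ogn, Bgn and Fmod against the deviation of the meningeal fibroblast score, for 16 libraries coloured by group. The points of Bgn and Fmod climb along the score (r = 0.86 and 0.87), those of Ogn scatter more (r = 0.60), and those of Ecm2 lie level (r = 0.03).

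Among the 8 Dnmt3a2 libraries, the members' deviations from the day mean were also set against the Dnmt3a level. On each day that level was lowest in the choroid-rich replicate 1, at 623 CPM in Dnmt3a2_1d and 1010 CPM in Dnmt3a2_5d. The same 2 libraries were the highest of their groups in Bgn (24.3 and 23.8 CPM) and Fmod (4.16 and 4.0 CPM). The part of choroid plexus content in the relations to Dnmt3a was not tested. By exact permutation within days, adjusted over 8 relations, Fmod (r = -0.85, adjusted exact p = 0.0417; rho = -0.83, adjusted p = 0.139) and Bgn (r = -0.75, adjusted exact p = 0.0417; rho = -0.64, adjusted p = 0.188) passed by Pearson's r alone. Without the 2 libraries farthest from the median Dnmt3a level, r was -0.79 and -0.86. Ecm2 gave r = 0.52 (adjusted exact p = 0.242) and rho = 0.74 (adjusted p = 0.188), and 0.59 without those 2 libraries. Without the choroid-rich libraries, an alternative chosen after seeing the data, Ecm2 gave r = 0.92 (exact p = 0.0278, the smallest that 6 libraries allow, adjusted p = 0.222) and rho = 0.83 (adjusted p = 0.444). Fmod then gave r = -0.64 (adjusted exact p = 0.667) and rho = -0.49 (adjusted p = 0.711), and Bgn r = -0.61 (adjusted exact p = 0.667) and rho = -0.60 (adjusted p = 0.711). A single relation can reach no adjusted exact p below 0.222 with 6 libraries or 0.0556 with 7, though several small p-values together can adjust lower. Neither the Fmod nor the Bgn call held when any 1 of the 8 libraries was left out.

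Over all 16 libraries, groups included, the 5 genes whose log2 CPM was most like that of Ecm2 among 13069 genes with an established symbol and a mean of at least 1 CPM were Dnmt3a itself (r = 0.941), Pip4k2c (0.919), Htr2a (0.914), Fam19a1 (0.903) and Igsf1 (0.896). These values describe shared group differences as well as shared spread between libraries. Ecm2 and Ogn were chosen by their difference between Dnmt3a2 and Control in the same libraries. Genes that differ between those groups, Dnmt3a first, therefore rank high by that choice, and the ranks support nothing. Htr2a, a serotonin receptor gene, averaged 10.6, 17.6, 11.4 and 20.4 CPM in Control_1d, Dnmt3a2_1d, Control_5d and Dnmt3a2_5d, the same order of groups as Ecm2. Ogn ranked 267 in likeness to Ecm2 (r = 0.666), Lum 708 (r = 0.545), Bgn 3479 (r = 0.252) and Dcn 10531 (r = -0.319). The genes most like Ogn were Narfl (0.824), Actn4 (0.800), Trim21 (0.793), Pkdrej (0.787) and Vwa3b (0.785), with Dnmt3a at rank 97 (r = 0.626). The lists of 5 for Ecm2 and Ogn have no gene in common.

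Across the family as a whole, 13 of 18 listed genes were tested, and those that passed in edgeR were Ecm2 and Ogn, the genes the choice rests on. Prelp, which anchors basement membranes to collagen, measured 37.5, 44.3, 38.3 and 39.7 CPM in Control_1d, Dnmt3a2_1d, Control_5d and Dnmt3a2_5d, with log2 differences of 0.24 and 0.05 (adjusted p 0.866 and 0.98 in edgeR). Podn, the podocan gene, gave 3.84, 2.77, 3.7 and 2.65 CPM and log2 differences of -0.47 and -0.48 (adjusted p 0.63 and 0.539 in edgeR). Kera and Epyc, keratocan and epiphycan, stayed below 0.1 CPM in every library.

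The enzymes that build the sugar chains of proteoglycans, their collagen partners, their ligands and receptors, and the proteases that cut them gave 0 calls in edgeR at 1 day and at 5 days. At an unadjusted p under 0.05 there were 1 of 7 linkage genes, 2 of 15 chondroitin and dermatan sulphate enzymes, 1 of 9 keratan sulphate genes, 0 of 10 collagens, 2 of 19 ligands and receptors and 1 of 10 proteases at 1 day, and 1, 3, 1, 2, 2 and 4 at 5 days. The shares over all tested genes were 7.17% and 8.01%. With the days averaged, 1.43% of all tested genes passed an adjusted p of 0.05 in edgeR. Of the 7 linkage genes 1 passed. This was Pxylp1, a phosphatase acting on the linkage xylose, with 16.1 ± 1.53 CPM in Control and 13.2 ± 0.443 in Dnmt3a2 at 1 day and 17.5 ± 0.742 and 13.9 ± 1.08 CPM at 5 days (averaged log2 difference -0.31, SE 0.05, adjusted p 0.00416 in edgeR). Of the keratan sulphate genes 1 passed, Chst1, a sulphotransferase, with 461 ± 17.1 and 517 ± 27.4 CPM at 1 day and 457 ± 22.9 and 519 ± 23.3 CPM at 5 days (averaged log2 difference 0.17, SE 0.04, adjusted p 0.015 in edgeR). Without replicate 4 of Dnmt3a2_5d its adjusted p was 0.0516.

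Of the 10 tested proteases and their enhancers 1 passed for the averaged days, beside the same 1.43% of all tested genes. This was Mmp2, a gelatinase, with 14.7 ± 0.942 and 10 ± 2.37 CPM at 1 day and 14.5 ± 1.91 and 11.3 ± 1.52 CPM at 5 days. Its averaged log2 difference was -0.46 (SE 0.10, adjusted p 0.026 in edgeR), and the call was lost when any of 6 single 5-day libraries was left out (Control_5d replicates 1, 3 and 4, Dnmt3a2_5d replicates 2, 3 and 4), with an adjusted p of up to 0.0626. Of 15 tested chondroitin and dermatan sulphate enzymes, 10 collagens and 19 tested ligands and receptors, 0 passed for the averaged days, with 5, 1 and 3 at an unadjusted p under 0.05, as for 12.1% of all tested genes. The list medians for the averaged days were -0.049, 0.006 and 0.036, and those of the linkage genes, keratan sulphate genes and proteases -0.011, 0.036 and 0.121, beside 0.006 over all tested genes. Mmp2 thus lay on the other side of 0 from its list's median, with 8 of the 10 proteases above 0.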

How the data were processed

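RNA from dorsal hippocampus was sequenced in 16 libraries, 4 per group, with groups taken from the labels. Per the submitters' processing notes, Trim Galore 0.6.4, kallisto 0.4.6, edgeR 3.17 and the build GRCm38.p6 were used, with no role stated. The authors deposited estimated counts per Ensembl gene (55385 identifiers, 35.8% of nonzero values not whole at a tolerance of 0.001) and log2 CPM of 16907 genes, which differ from edgeR's TMM log2 CPM of the same counts by at most 5.33e-15. The sources used here do not state the annotation release or counting strand. Symbols, exons and lengths are from GENCODE M21 (55144 identifiers matched), promoters from RefSeq.

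The estimated counts were rounded, filtered with filterByExpr and tested over all 16 libraries with edgeR 4.0.16 (TMM, robust quasi-likelihood fit, Benjamini-Hochberg adjustment, 0.05 as threshold) in R 4.3.3, a procedure also tested on simulated data. Alternatives used DESeq2 1.42.0 and limma 3.58.1. Relations across libraries used 100000 permutations within groups, or all 576 for 8 libraries. The named genes are the 9 members, Dnmt3a, the tested genes within 500 kb, the 5 genes most like Ecm2 and Ogn, and up to 2 called per direction from each list of pathway genes or cell type markers. The members and lists were chosen with earlier results of these data known. Same-numbered replicates were not treated as pairs, because of 24 such pairs 8 correlated above 0.1 (r from -0.086 to 0.38).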

Additional observations from a re-analysis of the deposited data

Results flagged for a closer look

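Fmod in Control_5d had 1 library far from the others of its group: replicate 4 measured 2.29 CPM, while the other 3 lay between 3.42 and 3.57 CPM. That gap is 0.879 of the group's range, above Dixon's 95% critical value for 4 values. It was the one flag among 36 combinations of member and group, and chance flags about 1 in 20. The same library had the lowest meningeal fibroblast score of all 16, at -0.24. The part of the fibroblast markers in this value was not tested. Without this library the Fmod difference of Dnmt3a2 from Control at 5 days was -0.1 in place of 0.03 on the log2 scale, and neither passed the test.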

How the results depend on the processing

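The counts of members past the threshold at 5 days (1), for the averaged days (2), between days and for the difference of effects (0 each) were the same under every alternative run, up to 31 per result. The count at 1 day was 1, with Ecm2 kept and Ogn lost, under upper-quartile factors, limma-voom, limma-trend on the deposited log2 CPM, no robust estimation, a fit of only the groups compared, and without the 2 choroid-rich or the 3 interferon-rich libraries. Leaving out single libraries gave 1 to 2, and Ogn was lost without Control_1d replicate 1 or 2, Dnmt3a2_1d replicate 1, 2 or 3, any Control_5d library, or Dnmt3a2_5d replicate 2 or 3. Its adjusted p (0.0379 in edgeR) ran from 0.000273 with DESeq2 to 0.338 in the fit of only the groups compared, with a log2 difference of 0.60 to 0.88. Ecm2 passed in all 31, at 0.87 to 1.10 on day 1 (adjusted p 3.7e-07 to 0.033) and 1.06 to 1.24 on day 5 (adjusted p 1.31e-11 to 0.00243). The cause of these changes was not tested. With the replicate number as a block the counts were 2, 1 and 2, no call of a member changed, and 6 of 16 libraries correlated best with their own number. Mmp2 and Slc1a3 lost their call for the averaged days under the block.

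The number of relations to the Dnmt3a level past the threshold (2) was 0 without the 2 choroid-rich libraries and 0 without any single library. Neither the Fmod nor the Bgn call therefore held with 1 library left out. A lone relation can reach an adjusted exact p of 0.222 at best with the 36 regroupings of 6 libraries, and 0.0556 with the 144 of 7. Several small p-values together can adjust lower. How much of the loss comes from the smaller number of libraries was not tested. Relations to the fibroblast score past the threshold (2) numbered 2 to 3.

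Of 1730 single values over 57 results, 1623 kept direction and call, 66 lost the call and 41 changed sign, all of them values that did not pass. With the fibroblast score as covariate these were Cenpp at 1 day (-0.037), Fmod averaged (0.015), Ogn (-0.04) and Fmod (-0.1) between days in Dnmt3a2, and the Dcn difference of effects (-0.17). Without the 2 choroid-rich libraries they were Bgn (-0.0019) and Fmod (-0.083) at 5 days, Ogn between days in Dnmt3a2 (-9.3e-06) and the Dcn difference of effects (-0.16). Without the 3 interferon-rich libraries they were Bgn (-0.002) and Fmod (-0.083) at 5 days and the Dcn difference (-0.094). With the choroid plexus score as covariate Fmod was -0.073 at 5 days. Leaving out single libraries moved across 0 Cenpp (-0.081 to 0.3) and Lum (-0.0099 to 0.16) at 1 day, Bgn (-0.002 to 0.19) and Fmod (-0.1 to 0.15) at 5 days, Cenpp averaged (-0.19 to 0.0031), Aspn between days in Control (-0.12 to 0.33), Ogn (-0.019 to 0.092) and Fmod (-0.048 to 0.24) between days in Dnmt3a2, and the differences of effects for Dcn (-0.16 to 0.22) and Bgn (-0.16 to 0.064). Depth limits Omd (at most 7 counts) and Aspn most.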
